A study of Mus musculus with 24 samples.

Results

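Chemokines and chemokine receptors were examined in sorted cells of 3 mouse mammary tumour lines. The genes were taken by symbol: the CC, CXC, CX3C and XC ligands, the conventional receptors named Ccr, Cxcr or Cx3cr, and the atypical receptors named Ackr. The rule found 64 symbols of 49982 symbols in the count tables. A count was present for 53 of them in 4T07, 45 in D2A1 and 50 in EMT6, and the filter on low counts left 31, 21 and 20 to be tested.

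Each of 4T07, D2A1 and EMT6 carried mCherry and the mVenus-p27K reporter in both gates, and 250000 cells were grafted orthotopically, in the mammary fat pad, in female Balb/cJ mice, whose age is not given in the labels. Tumours were collected on day 14. From each of 4 tumours per line, cells high for the reporter (p27K high, the quiescent cancer cells of the labels) and cells negative for it (p27K negative, called proliferative) were sorted, which gave 24 bulk RNA libraries. The labels do not state whether a line is 1 clone or which promoter drives the reporter. The question put to each gene was whether its RNA differed between the gates of the same tumour, and whether that difference was the same in the 3 lines.

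Chemokines are small secreted proteins that direct cell movement through receptors coupled to G proteins. CXC ligands with an ELR motif act on Cxcr2 and draw neutrophils, the interferon-induced ligands Cxcl9, Cxcl10 and Cxcl11 act on Cxcr3 of T and NK cells, and Ccl2 and its neighbours act on Ccr2 of monocytes. Atypical receptors bind ligand without signalling through G proteins and remove it, and most conventional receptors are made by leukocytes, so they are described apart from the ligands.

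The promoters of 4 ligands on chromosome 5 are shown first because the first 3 genes belong to a single family, of which Cxcl1 and Cxcl3 rose in 2 lines each and Cxcl2 was called in none, while Cxcl10 fell in each line. They come from RefSeq on GRCm38.p6, run 5′ to 3′ along the gene from 250 bases before to 50 bases after the start, and have in capitals each match to the NF-kB consensus or to the interferon-stimulated response element core, searched on both strands. Cxcl1 (chr5:90890995-90891294, plus strand), Cxcl2 (chr5:90903649-90903948, plus strand), Cxcl3 (chr5:90785851-90786150, plus strand) and Cxcl10 (chr5:92348840-92349139, minus strand) read as follows.
Cxcl1: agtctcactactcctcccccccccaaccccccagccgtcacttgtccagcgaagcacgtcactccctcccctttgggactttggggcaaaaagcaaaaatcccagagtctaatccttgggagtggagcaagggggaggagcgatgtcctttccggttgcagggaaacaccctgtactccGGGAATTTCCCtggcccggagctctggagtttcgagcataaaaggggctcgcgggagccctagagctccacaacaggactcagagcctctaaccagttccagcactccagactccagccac
Cxcl2: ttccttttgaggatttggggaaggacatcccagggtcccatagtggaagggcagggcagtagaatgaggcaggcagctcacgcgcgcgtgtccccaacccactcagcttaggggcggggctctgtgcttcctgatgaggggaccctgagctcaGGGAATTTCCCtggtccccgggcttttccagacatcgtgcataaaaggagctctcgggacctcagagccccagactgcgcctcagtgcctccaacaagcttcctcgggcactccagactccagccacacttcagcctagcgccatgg
Cxcl3: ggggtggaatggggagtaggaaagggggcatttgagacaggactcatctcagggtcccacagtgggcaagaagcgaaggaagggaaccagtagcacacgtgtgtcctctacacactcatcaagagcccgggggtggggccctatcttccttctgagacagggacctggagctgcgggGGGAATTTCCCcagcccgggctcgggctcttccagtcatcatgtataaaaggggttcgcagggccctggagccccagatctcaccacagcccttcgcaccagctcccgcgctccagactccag
Cxcl10: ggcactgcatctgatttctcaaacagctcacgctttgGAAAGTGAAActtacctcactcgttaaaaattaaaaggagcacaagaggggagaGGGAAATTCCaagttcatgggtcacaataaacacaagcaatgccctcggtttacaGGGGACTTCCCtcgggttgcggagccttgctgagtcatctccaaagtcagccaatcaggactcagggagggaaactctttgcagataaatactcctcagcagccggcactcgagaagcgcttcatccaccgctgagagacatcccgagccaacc
The capitals in Cxcl1 (positions -71 to -61 from the start), Cxcl2 (-97 to -87) and Cxcl3 (-73 to -63) are the same 11 letters, GGGAATTTCCC, in which an NF-kB match on each strand overlaps the other. Cxcl10 had NF-kB matches at -159 to -150 and at -104 to -94, and a response element core on the reverse strand at -213 to -204. An NF-kB match was present in 8.46% of 32851 mouse promoter windows of the same length, and a response element core in 3.44%. Of the 26 genes tested in at least 1 line that had a promoter in the table, 6 held an NF-kB match (23.1%) and 2 a response element core (7.69%). Ackr3 had no match to either motif in its window.

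The libraries held 27887221 to 45460880 counts in 4T07, 13769682 to 20142013 in EMT6 and 6727594 to 20174767 in the p27K high libraries of D2A1. The D2A1 p27K negative libraries of tumours 1 to 3 held 1335433 to 2110563 counts and that of tumour 4 held 15641189. Levels are given as CPM, the counts scaled to library size, and 1 count in the smallest library was 0.742 CPM, so low genes of D2A1 are measured coarsely. The sort was checked by the reporter's parent gene and by a cycling gene: Cdkn1b, which encodes p27, rose by 0.89, 0.46 and 0.54 (log2, in the order 4T07, D2A1, EMT6), and Mki67 changed by -6.52, -5.92 and -5.31 (edgeR, each adjusted p under 0.05). Whether reads of the reporter were counted as Cdkn1b is not known, so its rise is not an independent check. The labels say the cells were stained for CD45 without giving the gate: its gene Ptprc stood at 4.56 to 12.5 CPM in 4T07 p27K high and 19.3 to 38.6 CPM in p27K negative libraries, and at most at 2.77 CPM in D2A1 and 0.299 CPM in EMT6. Epithelial markers summed to 439 to 695 CPM in 4T07, 67.5 to 545 CPM in D2A1 and 611 to 1049 CPM in EMT6, with Esrp1 at 0 in 4T07. In bulk RNA, fewer cells of a type and less RNA per cell cannot be told apart.

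In 4T07 the tested chemokine genes were mostly lower in p27K high cells: 4 rose, 20 fell and 7 were not called, so 77.4% were called, where 45.7% of all 12849 genes tested were called (22.1% higher and 23.6% lower). In D2A1 the split ran the other way, with 8 higher, 3 lower and 10 not called, or 52.4% beside 29.5% of all genes (14.9% higher and 14.7% lower). In EMT6 5 rose, 3 fell and 12 were not called, and this 40% was no more than the 49.2% of all genes (24.1% higher and 25.1% lower). These shares of all genes are also the ones to set beside the counts of each role and marker list below. The median change of the tested members was -1.78 in 4T07, 0.35 in D2A1 and -0.11 in EMT6 on the log2 scale, where the median of all genes was -0.00, 0.02 and 0.02. Calls are at an adjusted p under 0.05 from edgeR's quasi-likelihood test with the tumour as a block and Benjamini-Hochberg adjustment over all genes. Without TMM scaling the median of all 4T07 genes was -0.14, the share of higher genes among all called fell from 48.3% to 33.2%, and the members split into 4 higher and 24 lower. In D2A1 leaving out tumour 4 left 4 higher and 1 lower, leaving out tumour 1 left 3 and 3, leaving out tumour 3 gave 6 and 5, and a fit without the tumour block 3 and 2. In EMT6 the fit without the block gave 3 higher and 1 lower, DESeq2 4 and 1, and no filter on low counts 7 and 7. Leaving out EMT6 tumour 1 gave 4 higher and 5 lower and leaving out tumour 2 gave 4 and 4, so the split of that line has no settled direction.

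**Figure D1:**
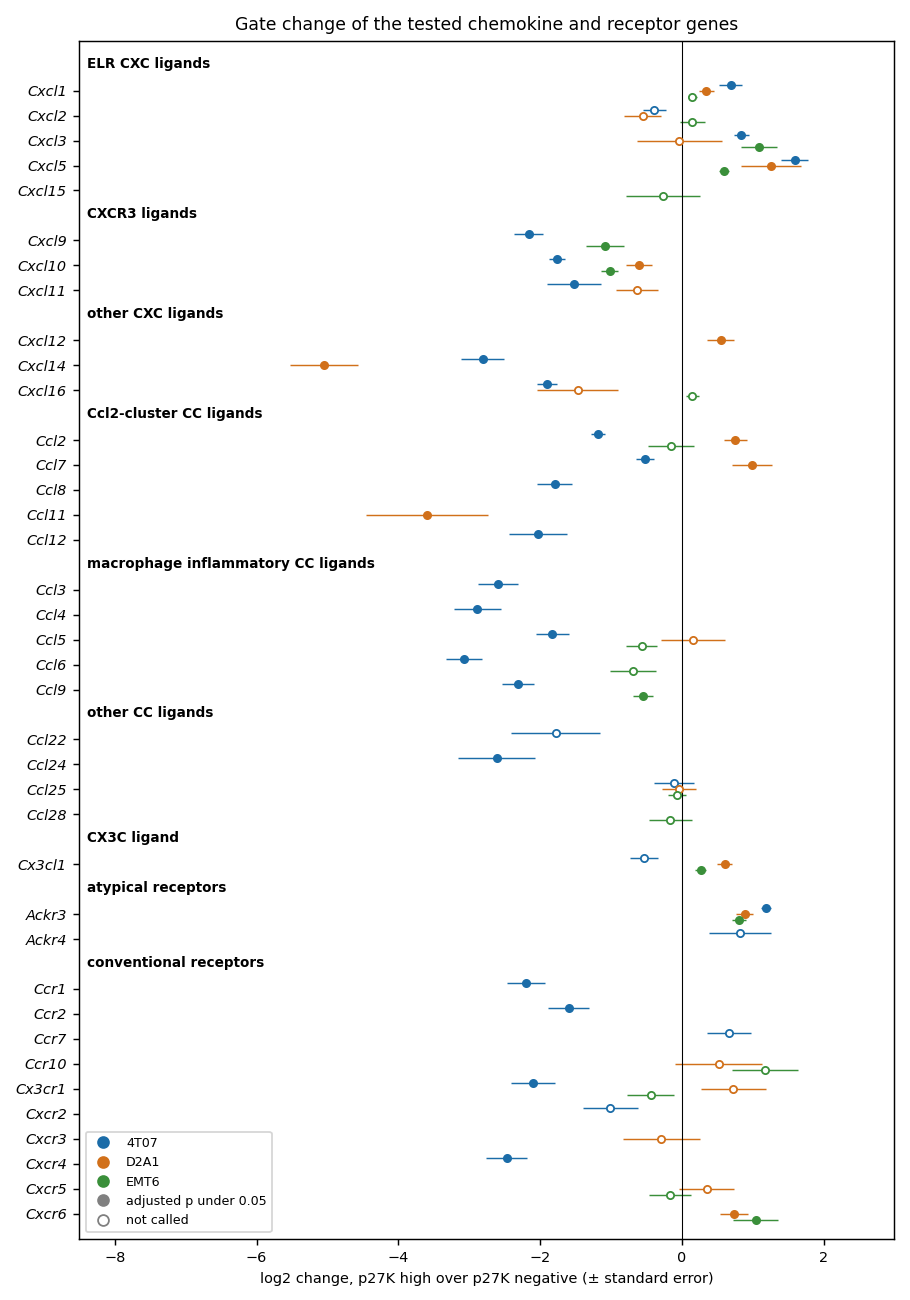
Log2 change of the tested chemokine and receptor genes named in the text or not called, p27K high over p27K negative (x axis, points with standard error bars), grouped by role and coloured by line. Filled points have an adjusted p under 0.05. The points of 4T07 lie mainly left of 0, Ackr3 and Cxcl5 lie right of 0 in all 3 lines, and Cxcl10 lies left of 0 in all 3.

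Of the 64 symbols 12 were tested in every line, 21 in at least 2 lines and 39 in at least 1. Among the 12, Ackr3 and Cxcl5 rose in all 3 lines and Cxcl10 fell in all 3, where 6.41% of the 10773 genes tested in every line rose and 9.62% fell in all 3. Among the 21, 6 rose in at least 2 lines (Cxcl1, Cxcl3, Cx3cl1 and Cxcr6 beside the first pair), where 17.3% of 12832 genes did, and 4 fell in at least 2 (Cxcl9, Cxcl14 and Ccl9 beside Cxcl10), where 18.2% did. Ccl2 and Ccl7 were called in opposite directions in 4T07 and D2A1, and 2.95% of the 12832 genes were called in opposite directions in some pair of lines. There was no count in any table for 9, namely Ccl19 and its copies Ccl19-ps1 and Ccl19-ps3, Ccl21a, Ccl21b, Ccl21c, Ccl26, Ccl27 and Ccl27b. Another 16 had counts but passed the filter in no line: Ackr1, Ackr2, Ccl1, Ccl17, Ccl20, Ccl27a, Ccr1l1, Ccr3, Ccr4, Ccr6, Ccr8, Ccr9, Cxcl13, Cxcl17, Cxcr1 and Xcl1.

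Ackr3, the atypical receptor that takes up Cxcl12 and Cxcl11, was higher in p27K high cells of every tumour. In 4T07 it stood at 674, 715, 403 and 517 CPM in the p27K high libraries of tumours 1 to 4 and at 307, 307, 187 and 211 CPM in their p27K negative libraries. The D2A1 p27K high libraries held 176, 193, 184 and 139 CPM and the p27K negative libraries 102, 90.8, 88.6 and 88.9 CPM. In EMT6, with tumours in the order of the column numbers 0, 1, 2 and 4, the values were 121, 120, 125 and 109 CPM against 50.3, 74.5, 73.0 and 76.2 CPM. In each line the lowest p27K high library was above the highest p27K negative one. The change was 1.19 ± 0.07 (log2 ± SE; edgeR adjusted p = 2.14e-05) in 4T07, 0.89 ± 0.12 (adjusted p = 0.000122) in D2A1 and 0.81 ± 0.10 (adjusted p = 0.000165) in EMT6. A test that the change was equal in the 3 lines gave an adjusted p of 0.118 (edgeR F-test over 24 libraries), and the average over lines was 0.99 ± 0.06. Without EMT6 tumour 0, whose p27K negative library was the lowest of its group, that test gave an adjusted p of 0.0208. Ackr3 lies on chromosome 1 (mm10, chr1:90203980-90216751, plus strand). Per kilobase of exon its rank among the members was 3 in the p27K high cells of each line, at 172, 51.7 and 35.5 CPM per kb. Ackr4, which takes up Ccl19, Ccl21 and Ccl25, stood at 0.212 to 0.932 CPM in 4T07 p27K high and 0.229 to 0.389 CPM in p27K negative libraries, with a change of 0.82 ± 0.43 (adjusted p = 0.160).

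The ELR ligands rose or were not called: 3 of 4 tested rose in 4T07, 2 of 4 in D2A1 and 2 of 5 in EMT6, and none fell. Of all genes tested, 22.1% rose in 4T07, 14.9% in D2A1 and 24.1% in EMT6. Cxcl5, a ligand of Cxcr2, rose in each line. Its p27K high libraries in 4T07 held 316, 715, 120 and 154 CPM, and the p27K negative ones 138, 139, 46.2 and 56.7 CPM. In D2A1 they held 20.9, 26.1, 39.1 and 32.0 CPM against 12.6, 38.4, 7.2 and 5.31 CPM, and in EMT6 101, 136, 143 and 175 CPM against 55.3, 88.9, 104 and 125 CPM. Every tumour of 4T07 and EMT6 had more Cxcl5 in its p27K high library, although the 2 gates overlapped across tumours, and in D2A1 tumour 2 went the other way. The change was 1.59 ± 0.19 (edgeR adjusted p = 0.00052) in 4T07, 1.26 ± 0.42 (adjusted p = 0.0395) in D2A1 and 0.60 ± 0.07 (adjusted p = 9.94e-05) in EMT6. The D2A1 call was not stable: without tumour 4 the change was 0.60 (adjusted p = 0.329), without tumour 2 it was 2.09 (adjusted p = 0.00019), it was also lost without tumour 1 or 3 (adjusted p = 0.0806 and 0.0687), and DESeq2 gave an adjusted p of 0.153. Without the tumour block the D2A1 and EMT6 calls were lost (adjusted p = 0.125 and 0.0806).

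Cxcl1, the ligand with the highest level per kilobase in both gates of each line, rose in 4T07 and D2A1. In 4T07 the p27K high libraries held 325, 686, 172 and 204 CPM and the p27K negative libraries 220, 268, 125 and 155 CPM. In D2A1 they held 143, 154, 194 and 203 CPM against 108, 135, 144 and 156 CPM, and in EMT6 172, 163, 144 and 192 CPM against 149, 130, 155 and 170 CPM. Each 4T07 and D2A1 tumour was higher in p27K high cells, EMT6 tumour 2 was lower, and the gates overlapped in all 3 lines. The change was 0.69 ± 0.16 (edgeR adjusted p = 0.0105), 0.35 ± 0.11 (adjusted p = 0.0307) and 0.15 ± 0.07 (adjusted p = 0.0957, not called). Without the tumour block the adjusted p was 0.139 in 4T07 and 0.104 in D2A1, the D2A1 call was also lost without tumour 1, 2 or 4 (adjusted p = 0.138, 0.0839 and 0.114), and EMT6 was called without tumour 2 (0.24, adjusted p = 0.0188).

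Cxcl3, the neighbour of Cxcl5 and Cxcl1 on chromosome 5, rose in 4T07 and EMT6. The 4T07 p27K high libraries held 48.3, 40.6, 17.1 and 13.6 CPM, and the p27K negative libraries 30.3, 20.0, 8.74 and 8.29 CPM. Each tumour was higher in p27K high cells, with tumours 1 and 2 above tumours 3 and 4 in both gates. The change was 0.84 ± 0.11 (edgeR adjusted p = 0.000732) and, without the block, its adjusted p was 0.227. In EMT6, where the means were 2.12 and 0.990 CPM, it was 1.09 ± 0.25 (adjusted p = 0.00584) with no overlap between the gates, and in D2A1 it was -0.037 ± 0.60 (adjusted p = 0.972) at 0 to 4.68 CPM. Cxcl2, a member named after its values were seen, was not called in any line, with changes of -0.39 ± 0.16 in 4T07, -0.55 ± 0.26 in D2A1 and 0.15 ± 0.17 in EMT6. Its 4T07 value was called lower with total count scaling (adjusted p = 0.0268) and without tumour 2 (adjusted p = 0.00381). The promoters printed above hold the same NF-kB letters in Cxcl2 as in Cxcl1 and Cxcl3, which rose in 4T07. Whether the changes of Cxcl1 and Cxcl2 differ from each other was not tested. The sequences of these ligands are close, and the counting program, the treatment of reads that match several genes and the library's strand were not stated in the sources at hand. Fibroblast and pericyte markers were called in both directions in 4T07 and mostly higher in EMT6. In 4T07 3 of 13 tested rose and 3 fell, with a median log2 change of -0.996. Those counts were near the shares of all genes tested there, 22.1% higher and 23.6% lower. Dcn stood at 2.11 ± 0.10 and Pdgfra at 1.16 ± 0.08, while Pdpn stood at -2.14 ± 0.20 and Acta2 at -1.51 ± 0.26. The list summed to 1538 to 2312 CPM in p27K high and 640 to 785 CPM in p27K negative libraries. Most of that sum was Dcn (means of 1139 and 265 CPM) and Pdgfra (702 and 314 CPM). In EMT6 7 of 10 rose and 0 fell, where 24.1% of all genes rose and 25.1% fell. The sums there were 7860 to 10681 CPM in p27K high and 6061 to 8482 CPM in p27K negative libraries. No marker of the list was at 0 in any line. The part of such cells in the rises of Ackr3 and the ELR ligands was not tested.

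**Figure D2:**
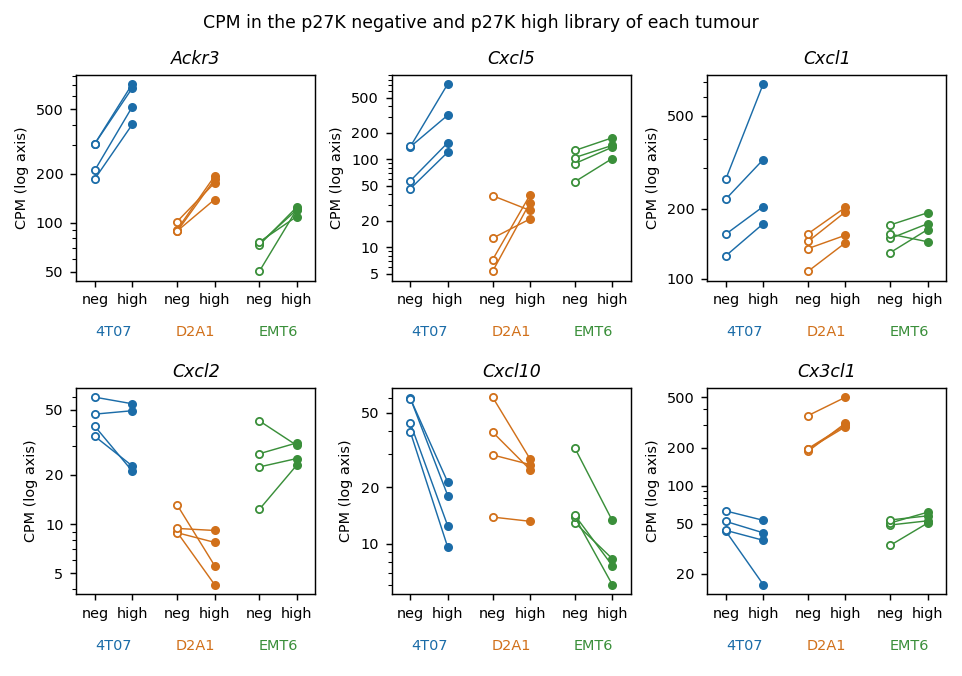
CPM on a log axis of 6 genes in the p27K negative (open points) and p27K high (filled points) library of each tumour, joined by a line, for 4T07, D2A1 and EMT6. Ackr3 was higher in p27K high cells of all 12 tumours and Cxcl10 lower, Cxcl5 was higher in all but D2A1 tumour 2, Cxcl2 showed no common direction, and Cx3cl1 was higher in D2A1 and EMT6.

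The CXCR3 ligands were lower in p27K high cells wherever they were called. Cxcl10 fell in each line. In 4T07 it stood at 18.0, 21.2, 12.4 and 9.54 CPM in p27K high libraries and at 59.4, 59.3, 43.7 and 39.3 CPM in p27K negative libraries. In D2A1 the values were 26.4, 24.8, 13.1 and 28.3 CPM against 29.7, 39.3, 13.8 and 60.4 CPM, and in EMT6 8.30, 6.04, 13.3 and 7.63 CPM against 12.9, 13.8, 32.3 and 14.2 CPM. All 12 tumours were lower in the p27K high library. The gates did not overlap in 4T07 and overlapped in D2A1 and EMT6. The change was -1.76 ± 0.11 (edgeR adjusted p = 2.73e-05) in 4T07, -0.60 ± 0.18 (adjusted p = 0.023) in D2A1 and -1.02 ± 0.12 (adjusted p = 9.94e-05) in EMT6. The fall was not equal in the lines (adjusted p = 0.00256, or 0.287 without the block): 4T07 minus D2A1 was -1.17 ± 0.21 (adjusted p = 0.00123) and 4T07 minus EMT6 -0.73 ± 0.21 (adjusted p = 0.0256), a larger fall in 4T07. D2A1 minus EMT6 was 0.44 ± 0.22 (adjusted p = 0.342). The D2A1 call was lost without the block (adjusted p = 0.121) and without tumour 2 (adjusted p = 0.105), and without tumour 4 the change was -0.36 (adjusted p = 0.249).

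Cxcl9 fell in the 2 lines where it was tested. In 4T07 the p27K high libraries held 3.37, 5.67, 3.78 and 5.61 CPM and the p27K negative libraries 14.5, 18.7, 28.4 and 21.6 CPM, with no overlap, a change of -2.16 ± 0.20 (edgeR adjusted p = 0.000173). In EMT6 the change was -1.09 ± 0.27 (adjusted p = 0.00778) at means of 0.680 and 1.44 CPM, and it was lost without the block (adjusted p = 0.322) and with DESeq2 (adjusted p = 0.0804). Cxcl11, annotated as a polymorphic pseudogene, fell by 1.51 ± 0.38 in 4T07 (adjusted p = 0.0148), where the call was lost without tumour 1, 3 or 4 (adjusted p = 0.0783, 0.0535 and 0.0598), and was not called in D2A1 (-0.64 ± 0.30, adjusted p = 0.129, or 0.0388 without tumour 3). In 4T07 the T and NK cell markers, cells these ligands attract, summed to 5.07 to 8.73 CPM in p27K high and 10.6 to 13.5 CPM in p27K negative libraries, and 3 of 7 tested fell. In D2A1 they summed to 1.90 to 2.78 CPM and 2.21 to 3.74 CPM with 7 of 16 at 0 (among them Cd3e, Cd3g, Cd2, Cd8b1, Nkg7 and Klrb1c), and in EMT6 to 7.31 to 11.2 CPM and 10.6 to 13.9 CPM, of which Lck held the most, with 6 of 16 at 0. The 3 T and NK cell markers that fell in 4T07 had means of 0.0378 to 0.195 CPM in p27K high cells. In p27K negative cells their means were 0.502 to 0.675 CPM. Their entry among the tested genes rested mainly on the p27K negative libraries, which already favoured a fall. The part of T and NK cells in the result was not tested.

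Other interferon-response genes were called in both directions in 4T07 and EMT6, while in D2A1 those called fell. The list of 20 holds Cxcl9, Cxcl10 and Cxcl11 themselves, so its counts are not independent of them. In 4T07 7 of 20 tested rose and 8 fell, in D2A1 0 of 19 rose and 4 fell, and in EMT6 8 of 19 rose and 5 fell. Of all genes tested, 22.1% rose and 23.6% fell in 4T07. The shares were 14.9% and 14.7% in D2A1 and 24.1% and 25.1% in EMT6. Ifit1, an interferon-induced protein that binds foreign RNA, rose by 1.15 ± 0.09 in 4T07 (edgeR adjusted p = 5.85e-05) and by 0.74 ± 0.10 in EMT6 (adjusted p = 0.00019).

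Ccl2 and Ccl7, neighbouring genes on chromosome 11 (mm10, chr11:82035571-82037453 and chr11:82045712-82047525, plus strand) whose products attract monocytes through Ccr2, fell in 4T07 and rose in D2A1. Ccl2 stood at 32.0, 54.2, 21.6 and 30.5 CPM in 4T07 p27K high libraries and at 77.6, 102, 51.0 and 75.2 CPM in p27K negative libraries. In D2A1 the values were 28.7, 39.6, 33.2 and 26.4 CPM against 16.3, 21.1, 15.5 and 19.9 CPM. Each 4T07 tumour was lower and each D2A1 tumour higher in p27K high cells, with the gates apart in D2A1 and overlapping in 4T07. The change was -1.18 ± 0.10 (edgeR adjusted p = 9.51e-05) in 4T07 and 0.75 ± 0.16 (adjusted p = 0.00376) in D2A1. In EMT6 Ccl2 was at 0.221 to 2.77 CPM in both gates and not called (-0.15 ± 0.33, adjusted p = 0.724). The changes differed between lines (adjusted p = 2.92e-05), 4T07 minus D2A1 being -1.95 ± 0.20 (adjusted p = 1.18e-05) and 4T07 minus EMT6 -1.07 ± 0.30 (adjusted p = 0.0227).

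Ccl7 showed the same split at lower levels. Its 4T07 p27K high libraries held 16.8, 17.3, 13.3 and 15.8 CPM and its p27K negative libraries 18.7, 25.3, 21.0 and 26.0 CPM, with no overlap. Its D2A1 p27K high libraries held 5.37, 7.11, 8.97 and 5.73 CPM and the p27K negative libraries 1.48, 4.21, 4.98 and 2.88 CPM, again with no overlap. The change was -0.52 ± 0.12 (edgeR adjusted p = 0.0116) in 4T07 and 0.99 ± 0.28 (adjusted p = 0.0172) in D2A1, and it differed between lines (adjusted p = 0.0117, or 0.0622 without the block). The 4T07 call was lost without tumour 3 or 4 (adjusted p = 0.0559 and 0.0626) and the D2A1 call without tumour 1 or 4 (adjusted p = 0.0569 and 0.0911). The rest of the cluster was lower where it was called: Ccl12 fell by 2.03 ± 0.41 (adjusted p = 0.00602) and Ccl8 by 1.80 ± 0.25 (adjusted p = 0.00121) in 4T07. Ccl12, a further Ccr2 ligand, stood at 0.952, 3.36, 0.565 and 1.58 CPM against 3.20, 6.67, 7.83 and 6.37 CPM, so the gates overlapped only through tumour 2 of the p27K high and tumour 1 of the p27K negative libraries. Ccl11 (eotaxin, which draws eosinophils through Ccr3) fell by 3.60 ± 0.86 (adjusted p = 0.00688) in D2A1, from 0.936 to 2.21 CPM in p27K negative to 0 to 0.165 CPM in p27K high libraries. Ccl11 passed the filter there through its p27K negative libraries alone, so its entry among the tested genes already favoured a fall. With Ccl11 counted, D2A1 had 2 higher and 1 lower of 3 tested in this cluster, 4T07 0 higher and 4 lower of 4, and EMT6 0 of 1 called.

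**Figure D3:**
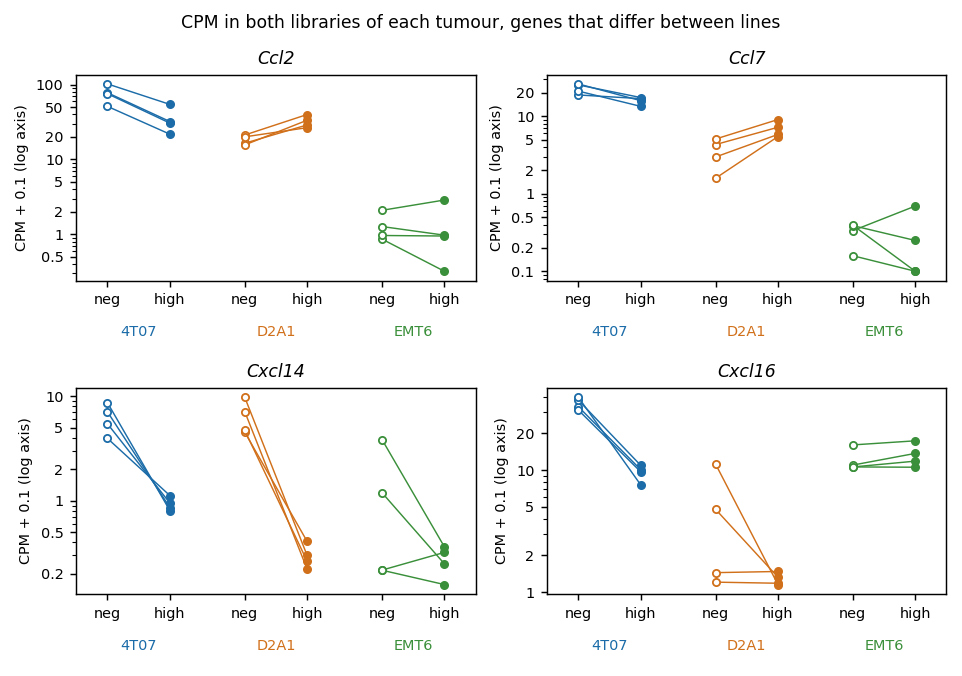
CPM plus 0.1 on a log axis of Ccl2, Ccl7, Cxcl14 and Cxcl16 in both libraries of each tumour, p27K negative open and p27K high filled. Ccl2 and Ccl7 lines slope down in 4T07 and up in D2A1, Cxcl14 lines slope down in both, and Cxcl16 lines slope down in all 4T07 tumours.

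Cx3cl1 (fractalkine), a chemokine tethered to the membrane by a stalk that binds Cx3cr1, rose in D2A1 and EMT6. In D2A1, where its level per kilobase came next to that of Cxcl1, p27K high cells gave 312, 301, 292 and 500 CPM and p27K negative cells 187, 196, 194 and 358 CPM. In EMT6 they held 50.6, 52.7, 61.6 and 57.6 CPM against 33.7, 48.8, 50.6 and 53.5 CPM, and in 4T07 42.3, 16.5, 53.1 and 36.9 CPM against 52.1, 43.5, 63.0 and 44.3 CPM. Every D2A1 and EMT6 tumour was higher and every 4T07 tumour lower in p27K high cells, and the gates overlapped in each line, in D2A1 because both libraries of tumour 4 were high. The change was 0.60 ± 0.11 (edgeR adjusted p = 0.00119) in D2A1, 0.27 ± 0.08 (adjusted p = 0.0206) in EMT6 and -0.54 ± 0.20 (adjusted p = 0.0581, not called) in 4T07. It differed between lines (adjusted p = 0.0028), with 4T07 minus D2A1 at -1.16 ± 0.21 (adjusted p = 0.00129). Without the block the adjusted p was 0.0797 in D2A1, 0.175 in EMT6 and 0.137 for the difference, and without EMT6 tumour 2 it was 0.0867 in that line. The 4T07 value was called lower with total count scaling, with DESeq2, without the filter and without tumour 2 (adjusted p = 0.0381, 0.0158, 0.041 and 0.00351), and without tumour 2, whose p27K high library had 13500 genes with a count where the others of that gate had 15094 to 15370, the change was -0.27.

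Cxcl16, a membrane-bound ligand of Cxcr6, fell in 4T07. It stood at 10.0, 10.9, 7.49 and 9.60 CPM in p27K high and 33.1, 37.5, 39.6 and 31.1 CPM in p27K negative libraries. The gates were far apart, and the change was -1.90 ± 0.14 (edgeR adjusted p = 6.14e-05). D2A1 p27K high cells gave 1.05 to 1.38 CPM, the p27K negative libraries of tumours 1 and 2 held 11.1 and 4.68 CPM and those of tumours 3 and 4 1.11 and 1.34 CPM, and the change of -1.47 ± 0.57 was not called (adjusted p = 0.0695). That D2A1 value passed with DESeq2, without the filter and without tumour 3 (adjusted p = 0.0481, 0.0199 and 0.0364). In EMT6 Cxcl16 was at 10.5 to 17.3 CPM in both gates (0.15 ± 0.09, adjusted p = 0.210). The changes differed between lines (adjusted p = 0.000679), 4T07 minus EMT6 being -2.02 ± 0.30 (adjusted p = 0.000487).

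Cxcl14, a ligand made by epithelium and stroma, had the steepest fall of the tested members in D2A1. Its p27K high libraries there held 0.201, 0.123, 0.309 and 0.165 CPM and its p27K negative libraries 9.65, 7.02, 4.43 and 4.61 CPM. In 4T07 the values were 1.02, 0.851, 0.707 and 0.761 CPM against 3.84, 5.34, 8.55 and 6.97 CPM. The gates did not overlap in either line. In D2A1 Cxcl14 passed the filter through its p27K negative libraries alone, so its entry among the tested genes already favoured a fall. The change was -5.05 ± 0.48 (edgeR adjusted p = 3.82e-06) in D2A1 and -2.81 ± 0.31 (adjusted p = 0.000383) in 4T07. A difference between lines had an adjusted p of 0.0443, which was lost in 8 of 12 fits that left out a tumour, up to an adjusted p of 0.144, and without the block (0.278). In EMT6 it was under the filter, with 3.74 and 1.09 CPM in the p27K negative libraries of tumours 0 and 2 and at most 0.264 CPM in p27K high libraries.

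In D2A1 markers of other cell types moved with Cxcl14 and Ccl11. Endothelial markers summed to 0.980 to 6.61 CPM in p27K high and 12.6 to 30.4 CPM in p27K negative libraries, and both tested fell (Cdh5 and Pecam1). Of 12 fibroblast and pericyte markers tested 7 fell, among them Col1a2 (-3.88 ± 0.31, edgeR adjusted p = 6.65e-07) and Thy1 (-5.00 ± 0.58, adjusted p = 2.58e-05), while 2 rose, and the summed level of the list was 925 to 1163 CPM in p27K high and 843 to 1099 CPM in p27K negative libraries. In p27K high cells the means of Cdh5, Pecam1 and Thy1 were 0.649, 0.807 and 0.242 CPM. Those in p27K negative cells were 4.79, 4.63 and 6.71 CPM. The entry of Cdh5, Pecam1 and Thy1 among the tested genes thus rested mainly on p27K negative libraries and already favoured a fall. Of 4 epithelial markers tested 0 rose and 1 fell, Krt8 (-2.46 ± 0.32, edgeR adjusted p = 8.38e-05). Epithelial markers summed to 96.9 to 210 CPM in the p27K high libraries of D2A1. In the p27K negative libraries of tumours 1 to 4 they summed to 545, 189, 106 and 67.5 CPM. The part of cells with any of these markers in the falls of Cxcl14 and Ccl11 was not tested. Cxcl12, the ligand of Cxcr4 and Ackr3, was tested in D2A1, where its p27K high libraries held 11.9, 19.7, 20.4 and 17.1 CPM and its p27K negative libraries 7.42, 18.2, 12.2 and 10.4 CPM. All 4 tumours were higher in p27K high cells, the gates overlapped, and the change was 0.55 ± 0.19 (adjusted p = 0.0432). The call was lost without the block (0.145), with total count scaling (0.0503), with DESeq2 (0.0898) and without tumour 1, 3 or 4 (0.116, 0.0572 and 0.228, all adjusted p). In 4T07 and EMT6 Cxcl12 was under the filter, at most at 0.357 and 0.760 CPM.

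The macrophage inflammatory CC ligands fell in 4T07, 5 of 5 tested, where 0 of 1 was called in D2A1 and 1 of 3 in EMT6. Ccl6, a ligand of Ccr1, stood at 5.62, 6.85, 6.04 and 14.1 CPM in p27K high and 29.0, 67.8, 95.4 and 91.7 CPM in p27K negative 4T07 libraries, a change of -3.07 ± 0.25 (edgeR adjusted p = 9.64e-05). Ccl9, also a ligand of Ccr1, stood at 3.69, 7.58, 4.17 and 7.13 CPM against 14.3, 25.9, 37.0 and 37.3 CPM, a change of -2.31 ± 0.22. For both genes every p27K high library was below every p27K negative one. Ccl3, a ligand of Ccr1, stood at 2.90, 3.28, 0.883 and 1.74 CPM against 12.1, 14.1, 12.2 and 11.4 CPM (-2.59 ± 0.29). Ccl4, which attracts monocytes and T cells, stood at 1.60, 0.567, 0.636 and 1.08 CPM against 6.59, 6.45, 9.33 and 6.06 CPM (-2.89 ± 0.33). Ccl5, also known as RANTES, stood at 1.81, 0.932, 1.55 and 1.49 CPM against 7.23, 4.87, 4.35 and 4.20 CPM (-1.83 ± 0.23). None of these 3 overlapped between gates either. In EMT6 Ccl9 fell by 0.54 ± 0.14 (adjusted p = 0.0109), a call lost without the block (0.0621) and with DESeq2 (0.0684), and Ccl5 (-0.56 ± 0.22, adjusted p = 0.0591) and Ccl6 (-0.69 ± 0.32, adjusted p = 0.105) were not called. Ccl5 was called lower there with no filter on low counts and without tumour 1 (adjusted p = 0.0236 and 0.0479). In D2A1 Ccl5 was at 0.742 to 2.21 CPM with a change of 0.16 ± 0.45 (adjusted p = 0.821). The change differed between lines for Ccl5 (adjusted p = 0.00499), Ccl6 (0.00235) and Ccl9 (0.000688).

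The remaining CC ligands were low. Ccl25, a ligand of Ccr9, was the highest of them and was not called in any line, with changes of -0.11 ± 0.29 in 4T07, -0.044 ± 0.24 in D2A1 and -0.069 ± 0.13 in EMT6 at 1.16 to 7.81 CPM over all libraries. Ccl24, a ligand of Ccr3 with a mean below 1 CPM, fell in 4T07 (-2.61 ± 0.54, edgeR adjusted p = 0.00684). It stood at 0 to 0.285 CPM in p27K high and 0.366 to 1.47 CPM in p27K negative libraries. Only the p27K negative libraries took it past the filter, so its entry among the tested genes already favoured a fall.

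The conventional receptors, which are set apart because leukocytes make most of them, were called lower in 4T07 alone: 0 rose and 5 fell of 7 tested in 4T07, 1 rose and 0 fell of 5 in D2A1, and 1 rose and 0 fell of 4 in EMT6. In 4T07 Ccr1, which binds Ccl3, Ccl6 and Ccl9, stood at 3.46, 4.98, 2.47 and 4.60 CPM in p27K high and 10.2, 17.6, 24.1 and 21.1 CPM in p27K negative libraries (-2.19 ± 0.27, edgeR adjusted p = 0.000665). Ccr2, the Ccl2 receptor of monocytes, stood at 2.23, 7.17, 3.71 and 3.74 CPM against 4.88, 12.1, 15.2 and 20.4 CPM (-1.60 ± 0.29). Ccr2 overlapped between the gates and Ccr1 did not. Cxcr4, the Cxcl12 receptor, stood at 2.99, 4.90, 2.26 and 3.36 CPM against 12.8, 16.6, 28.4 and 18.8 CPM (-2.47 ± 0.29). Cx3cr1, the Cx3cl1 receptor of macrophages, stood at 4.48, 3.16, 2.72 and 4.53 CPM against 11.3, 17.3, 25.5 and 12.9 CPM (-2.10 ± 0.31). Both were without overlap. Cxcr2 (-1.01 ± 0.39, adjusted p = 0.0689) and Ccr7, the receptor for Ccl19 and Ccl21 (0.66 ± 0.31, adjusted p = 0.116), were not called in 4T07. Cxcr2, the receptor of the ELR ligands, was called lower with total count scaling, DESeq2 and without tumour 2 (adjusted p = 0.0429, 0.0412 and 0.00093), and Ccr7 higher without tumour 2 (adjusted p = 0.0489). The 18 receptors summed to 18.3 to 28.4 CPM in p27K high and 60.0 to 138 CPM in p27K negative 4T07 libraries.

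Macrophage markers moved with these genes in 4T07. All 17 macrophage and monocyte markers tested fell there, and their summed level was 191 to 207 CPM in p27K high and 648 to 1514 CPM in p27K negative libraries, with Ptprc at -1.96 ± 0.28 (log2, edgeR adjusted p = 0.00123). Of 8 neutrophil markers tested 5 fell (19.1 to 57.8 CPM against 63.9 to 78.1 CPM), and of 3 dendritic cell markers 2 fell (5.37 to 6.31 CPM against 16.6 to 25.2 CPM). The 1 neutrophil marker tested in D2A1 and in EMT6 rose (1.53 ± 0.33 and 1.44 ± 0.24). The neutrophil sums there were at most 8.97 and 2.57 CPM. Of the dendritic cell markers 1 of 2 fell in D2A1 and 1 of 1 rose in EMT6. None of the 17 macrophage markers was at 0 in any line. In D2A1 1 of 9 rose and 1 fell (147 to 188 CPM against 83.9 to 145 CPM), with Cd14 at means of 137 and 61.6 CPM holding most of the sum, and in EMT6 3 of 7 rose and 1 fell (66.1 to 83.7 CPM against 53.4 to 70.0 CPM). The part of these cells in the falls of the macrophage inflammatory ligands, of Ccl2, Ccl7, Ccl8, Ccl12, Cxcl9, Cxcl10, Cxcl14 and Cxcl16 and of the receptors in 4T07 was not tested.

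**Figure D4:**
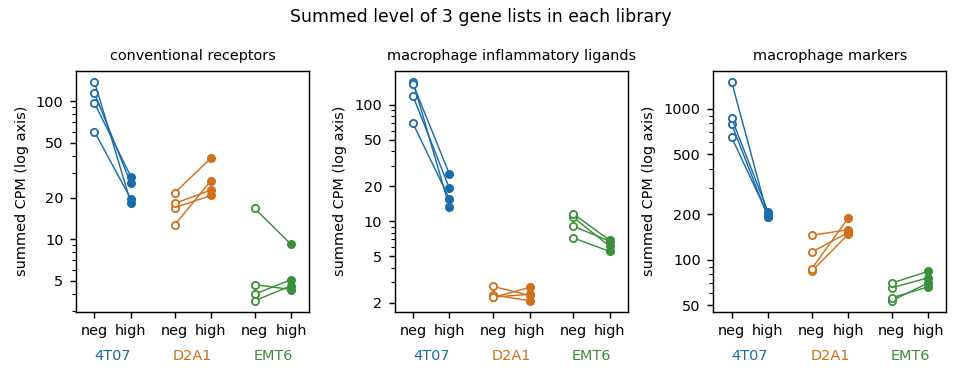
Summed CPM on a log axis of the 18 conventional receptors, the 5 macrophage inflammatory ligands and the 17 macrophage markers in each library, p27K negative open and p27K high filled, joined by tumour. All 3 sums were lower in the p27K high library of every 4T07 tumour, and the marker sum was higher in that of every D2A1 and EMT6 tumour.

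Cxcr6, the receptor for Cxcl16, was the conventional receptor that rose in D2A1 and EMT6. In D2A1 its p27K high libraries held 18.8, 11.8, 24.6 and 9.64 CPM and its p27K negative libraries 8.17, 7.49, 13.8 and 6.85 CPM. Each tumour was higher in p27K high cells, and the gates overlapped. The change was 0.74 ± 0.20 (edgeR adjusted p = 0.0126), lost without the block (0.0586) and without tumour 1 (0.069). In EMT6 the p27K high libraries held 1.33 to 1.45 CPM and the p27K negative libraries 0.288 to 0.936 CPM without overlap, a change of 1.04 ± 0.32 (adjusted p = 0.0213) that was lost with DESeq2 (0.0763) and without tumour 1 or 2 (0.0681 and 0.0889). In 4T07 it was under the filter in the fit of that line, with 9 counts over the p27K high and 34 over the p27K negative libraries, and in the fit over 24 libraries the change differed between lines (adjusted p = 0.00586). In D2A1 the summed T and NK cell markers were at most 3.74 CPM. Ptprc there was at most 0.661 CPM in p27K high and 2.77 CPM in p27K negative libraries. Levels of different genes do not give numbers of cells, and which cells held the Cxcr6 RNA was not tested.

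Other conventional receptors were low in those lines. Cx3cr1 was not called in D2A1 (0.73 ± 0.46, edgeR adjusted p = 0.263) or EMT6 (-0.44 ± 0.33, adjusted p = 0.307), while its change differed between lines (adjusted p = 0.00387). Cxcr3, the receptor of Cxcl9 and Cxcl10, was under the filter in EMT6 because tumour 0 alone held it, at 3.29 CPM in its p27K high and 12.0 CPM in its p27K negative library, where the other EMT6 libraries held at most 0.643 CPM. That pair set the highest level of any gene here that was not tested in its line.

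Over the 3 lines together 20 of 38 members tested had an average change called, 6 higher and 14 lower, where 52.4% of 13578 genes were called (28.3% higher and 24% lower). The higher ones were Ackr3, Cxcl5, Cxcl1 (0.43 ± 0.07), Cxcl3 (0.67 ± 0.18), Ackr4 (1.19 ± 0.39) and Ccr7 (1.11 ± 0.40). Ackr4 and Ccr7 were called in no single line, and their D2A1 p27K negative libraries held 4 and 5 counts. In D2A1 the mean of Ackr4 was 0.252 CPM in p27K high and 0.335 CPM in p27K negative cells. Among the lower ones Cxcl14 (-3.48 ± 0.29, edgeR adjusted p = 2.48e-08), Cxcl9 (-1.49 ± 0.19, adjusted p = 5.51e-06), Cxcl10 (-1.10 ± 0.09, adjusted p = 1.61e-08) and Cxcl16 (-1.02 ± 0.19, adjusted p = 0.000243) kept the call under each of 17 alternatives, and so did Ackr3, Cxcl5 and Cxcl1 among the higher. The count fell to 11 without D2A1 tumour 4, the tumour with the deep p27K negative library. Averages of Ccl6 and Ccl9 rested on it (adjusted p = 0.0144 and 0.0286 with it and 0.110 and 0.418 without it). Cxcr3 was called lower on average (-1.02, adjusted p = 0.0384) with its counts mainly in EMT6 tumour 0. The change was unequal between lines for 13 of 38 members, beside 24.5% of all genes, and for 7 without the block. They include Cxcl15, which had at most 1.13 CPM in any library.

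Genes of the chemokine system outside the name rule were read in the same fits. Mmp2, a protease that cuts Ccl7 and Cxcl12, rose in each line (2.10 ± 0.10, 1.54 ± 0.13 and 0.84 ± 0.13, in the order 4T07, D2A1, EMT6; edgeR adjusted p = 3.55e-06, 1.51e-06 and 0.000693). Cd74, a receptor for the cytokine Mif and the invariant chain of antigen presentation, fell in 4T07 (-1.24 ± 0.10) and EMT6 (-0.43 ± 0.06). Of this list 3 rose and 4 fell of 14 in 4T07, 5 rose and 0 fell of 9 in D2A1, and 5 rose and 3 fell of 11 in EMT6. For this list and those that follow, the shares over all genes tested were 22.1% higher and 23.6% lower in 4T07. They were 14.9% and 14.7% in D2A1 and 24.1% and 25.1% in EMT6. Of the genes that carry the signal of chemokine receptors, 5 rose and 13 fell of 27 in 4T07, 6 rose and 3 fell of 21 in D2A1, and 8 rose and 5 fell of 20 in EMT6. Grk6, a kinase that desensitises receptors, fell in each line (-1.29 ± 0.10, -1.13 ± 0.12 and -1.03 ± 0.06). Arrb1, the arrestin that Ackr3 and other receptors recruit, rose in D2A1 (1.29 ± 0.13) and EMT6 (0.97 ± 0.05). The leukocyte signalling genes Vav1 (-2.59 ± 0.20) and Dock2 (-2.86 ± 0.22) fell in 4T07, where the macrophage markers fell too. Of 17 NF-kB factors and feedback genes 3 rose and 2 fell in 4T07, 7 rose and 0 fell in D2A1, and 8 rose and 0 fell in EMT6. The 2 that fell in 4T07 were Nfkbie (-0.44 ± 0.11) and Nfkb2 (-0.33 ± 0.10). Nfkbiz, an inducible co-factor of NF-kB, rose in each line (0.41 ± 0.08, 0.73 ± 0.11 and 0.41 ± 0.08), as did Ikbkg, a subunit of the kinase that activates it (1.56 ± 0.13, 0.57 ± 0.13 and 0.68 ± 0.06). The median change of the NF-kB list was -0.07, 0.29 and 0.19, and that of the receptor signalling list -0.32, 0.18 and 0.03.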

How the data were processed

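Raw read counts per gene were deposited by the authors as whole numbers in 1 table per line, with no scaling. Per the labels' protocols, a sequencing company made them, and the submitters' processing notes name mm10 and DESeq2. Aligner, counter and strand: not given in the sources used here. Entries without a name (at most 0.0109% of a library's counts), a totals entry and 4 entries with dates for names per table were left out, symbols on several entries were summed, and the capitals of the 4T07 table were matched to the other tables (24034 symbols) or a reference table (507). Counts were fitted per line with edgeR 4.0.16 (R 4.3.3, limma 3.58.1): TMM scaling, its default filter on low counts, a tumour block, the quasi-likelihood test and Benjamini-Hochberg adjustment over all genes tested. A fit of the 24 libraries gave the average and the difference between lines. CPM are TMM-scaled. Levels of different lines come from separate runs and were set side by side with no test. DESeq2 1.42.0, other scalings and filters, a fit with no block and fits that left out each tumour were alternatives.

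The labels give both gates of a 4T07 or D2A1 tumour the same number, and that number was the block. For EMT6 the column numbers 0, 1, 2 and 4 are not the titles' numbers, so columns were given to a group and paired by column number, because every same-numbered pair deviated together (r = 0.615, 0.574, 0.813 and 0.648 over genes). The correlations were 0.195 to 0.801 in 4T07 and 0.0834 to 0.294 in D2A1. Both gates share a tumour. Whether tumours came from separate animals is not stated, so p-values measure only the spread between these tumours. The members, gene lists and tests were chosen with earlier results of these data known. Members called in a line or over lines are named if a gate's mean is at least 1 CPM, and every library's value is given from a mean of 5 CPM, with the highest member of each role. Coordinates and exon lengths are from GENCODE on mm10. The fit was tested on simulated data with 200 changed genes. A few genes of the lists, counted in them, are not reported here by name.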

Additional observations from a re-analysis of the deposited data

Results flagged for a closer look

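Among 70 groups of 4 libraries examined, 7 held a library apart from the other 3 by Dixon's ratio, where chance gives about 1 in 20. These were Ccl4 in 4T07 p27K negative library 3 (9.33 CPM), Ccl6 in 4T07 p27K high library 4 (14.1 CPM), Ackr3 in D2A1 p27K negative library 1 (102 CPM) and in EMT6 p27K negative library 0 (50.3 CPM), and Cxcl10 in EMT6 p27K negative library 2 (32.3 CPM). Cx3cl1 was apart in both libraries of D2A1 tumour 4, at 500.4 CPM in p27K high and 358 CPM in p27K negative cells, the tumour whose p27K negative library was sequenced more deeply than those of the other D2A1 tumours.

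The gate change differed between the 3 lines in edgeR's F-test for 11 named members. The adjusted p was 2.92e-05 for Ccl2, 0.000679 for Cxcl16, 0.000688 for Ccl9, 0.00235 for Ccl6, 0.00256 for Cxcl10 and 0.0028 for Cx3cl1. It was 0.00387 for Cx3cr1, 0.00499 for Ccl5, 0.00586 for Cxcr6, 0.0117 for Ccl7 and 0.0443 for Cxcl14. In each but Cxcl14 the fitted change was lowest in 4T07.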

How the results depend on the processing

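The number of members called kept within 1.5 times its main value under 56 of 64 alternatives. It moved in D2A1 from 11 to 5 with no replicate block, in EMT6 from 8 to 4 with no replicate block, to 5 with the DESeq2 Wald test and to 14 with no filter on low counts, and for the difference between lines from 13 to 7 with no replicate block. Leaving out each tumour in turn gave 22 to 28 in 4T07, 5 to 11 in D2A1 (6 without tumour 1, 5 without tumour 4), 8 to 10 in EMT6, 11 to 21 for the average over lines and 10 to 14 for the difference. Changes of the members that the naming rule picks kept direction and side of the threshold in 509 fits, lost the call in 40, gained one in 12 and changed sign in 11, all of values that were not called. Ccl25 was 0.037 in D2A1 with no filter, and without each tumour in turn it ran from -0.33 to 0.053 in 4T07 (positive without tumour 1 or 3), from -0.15 to 0.040 in D2A1 (positive without tumour 3 or 4) and from -0.13 to 0.0034 in EMT6 (positive without tumour 0). Cxcl3 in D2A1 was 0.035 with the DESeq2 Wald test, 0.046 with no filter and -0.22 to 0.70 without each tumour (positive without tumour 2 or 3), and Ccl2 in EMT6 was -0.50 to 0.070 (positive without tumour 1). Of the members named after their values were seen or for other reasons, Cxcl2 changed sign in EMT6 without tumour 1 (-0.050), and the calls gained by Cxcl2 and Cxcr2 in 4T07 stand in the text above. The causes were not tested. Depth limits D2A1 most, since 3 of its p27K negative libraries hold 1335433 to 2110563 counts.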
